A study of Aspergillus oryzae with 8 samples.

Results

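In Aspergillus oryzae RIB40, a mould grown for soy sauce, miso and sake making, 61 of the 11880 genes listed were kept as steady. Their share of the reads varied at most 2-fold over the 8 libraries, which covered every culture and treatment sequenced. The 61 genes were chosen by their own values. Reads per gene were divided by the total of the library and scaled to counts per 1e6 reads (CPM), and a gene was kept when its mean over the 8 libraries was at least 50 CPM and its highest CPM was at most 2 times its lowest. A mean of 50 CPM or more was reached by 2898 genes, and 62 of these met the limit on the spread, which is 2.14%. The rule also left out 9 genes by name. Among those, rpnL, a proteasome subunit gene by its symbol, met both limits at a ratio of 1.89, and the other 8 did not, with ratios of 2.07 to 5.67. Since the rule used all 8 libraries, the levels below describe the selected genes and are not tested.

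The 8 libraries held polyadenylated RNA of strain RIB40 from 4 conditions, 2 libraries each. Control mycelium was grown for 40 h at 30 °C in a glucose medium, with solid culture on agar plates covered by cellophane and liquid culture in flasks shaken at 200 rpm. Treated mycelium received 20 mmol/L dithiothreitol (DTT), added to the flask in liquid culture or, in solid culture, soaked into filter paper onto which the cellophane was moved, a transfer that the labels do not describe for the solid control. The labels give no time of exposure, and nothing in them says that the 2 libraries of a condition came from separate cultures, so the spread between them may be technical. Replicate 1 of every condition had inserts of 500 bp and replicate 2 inserts of 200 bp.

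DTT breaks disulfide bonds, which secreted proteins need in order to fold within the endoplasmic reticulum, and fungi respond with the unfolded protein response, a program that alters the transcripts of many folding and secretion genes. Growth on a surface and in liquid also differ in water, oxygen and substrate supply. Genes with transcripts that keep a constant level across such conditions are commonly wanted as references, against which other transcripts are measured. Few of the 61 genes have a symbol, and those that do are described one by one below, with what each is known for in fungi.

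The libraries held 5880753 to 8912897 reads on genes, and 50 CPM corresponded to 294 to 446 reads. Reads on 3 rRNA genes made up 8.2% to 37.6% of a library, and the factors that TMM scaling (trimmed mean of M values, which centres most genes between libraries) put on the library totals ran from 0.73 in liquid DTT replicate 1 to 1.249 in solid DTT replicate 2. A share of reads is not an amount per cell, and in these bulk samples fewer cells and less RNA per cell cannot be told apart. The lowest count of any of the 61 genes in any library was 202 reads, for AO090005000024 in solid control replicate 1, where 32.7 CPM had an exact 95% Poisson interval of 28.3 to 37.5. The interval covers counting error only.

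Most well expressed genes were far from steady. The median ratio of highest to lowest CPM was 5.61 over the 2888 of the 2898 genes with reads in every library. A ratio of at most 3 was met by 457 of the 2898 genes (15.8%) and one of at most 10 by 2024 (69.8%). Within the 61 steady genes the ratio ran from 1.32 to 1.99 with a median of 1.78, and 4 had a ratio of at most 1.5. The coefficient of variation over the 8 libraries had a median of 20.9%, against 57.5% over the 2898 genes.

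**Figure D1:**
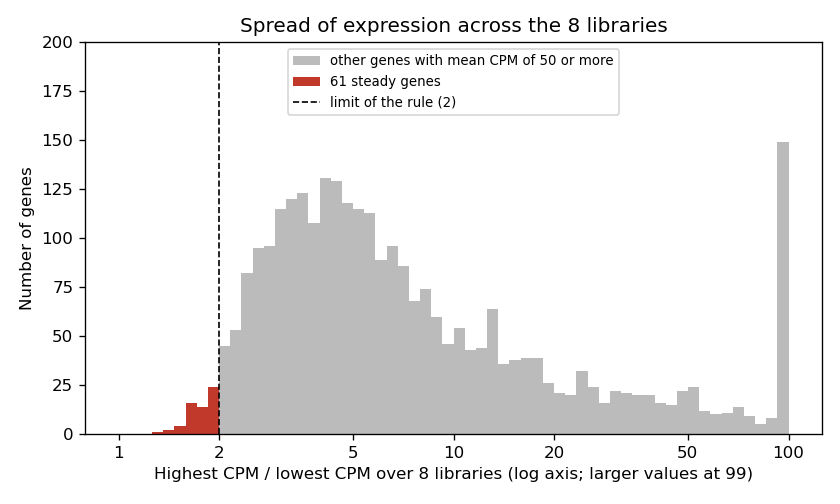
Number of genes with a mean of 50 CPM or more (y axis) by the ratio of highest to lowest CPM over the 8 libraries (x axis, log scale, with larger ratios and genes at 0 in a library drawn at the right end). Red bars are the 61 steady genes and grey bars the other genes, and the dashed line marks the limit of 2, below which 2.14% of these genes lie.

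The limits cut through a continuous distribution. Just inside the ratio limit stood AO090005001594 (1.99), AO090003001069 (1.99) and AO090005001616 (1.96), and just outside it AO090701000476, AO090012000172 and AO090020000593 (2.00, 2.00 and 2.01). Just inside the mean limit stood AO090005000024, AO090012000538 and AO090003000544, with means of 50.6, 50.6 and 51.9 CPM. Just below it were AO090023000760 (49.6 CPM), AO090005000781 (49.3 CPM) and AO090701000757 (49.1 CPM), which met the ratio limit.

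On the deposited totals the smallest ratio, 1.32, was that of racA (AO090020000127), which encodes a Rac-type small GTPase that in filamentous fungi acts in polarised growth. Its level was 81.1 and 75.6 CPM in the solid controls (replicates 1 and 2, the order kept in all sentences of this kind), 90.8 and 82.2 in solid DTT, 93.5 and 78.6 in the liquid controls and 74.8 and 98.7 in liquid DTT. Both its lowest and its highest value came from the same condition, liquid DTT, which occurred in 1 of the 61 genes. The mean was 84.4 ± 8.85 CPM (SD over 8 libraries), a coefficient of variation of 10.5%. The order depended on the scaling: the ratio of racA was 1.66 under TMM scaling, 1.74 with DESeq2 size factors and 1.77 without rRNA reads, the last near the median of the 61 genes, 1.77.

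The proteasome, the protease that degrades ubiquitin-tagged proteins, was represented by pup3 (AO090023000831), a subunit of its catalytic core in yeast, and rpt4 (AO090003000056), an ATPase of its regulatory particle. For rpt4 the levels were 114 and 147 CPM in the solid controls, 149.7 and 199 in solid DTT, 138 and 139 in the liquid controls and 108 and 174 in liquid DTT. For pup3 they were 90.3 and 109 CPM in the solid controls, 107 and 160.0 in solid DTT, 81.6 and 89.7 in the liquid controls and 85.7 and 132 in liquid DTT. Both genes were highest in solid DTT replicate 2. For rpt4 both solid DTT libraries were above both solid controls, and the groups overlapped in liquid culture; for pup3 they overlapped in both cultures.

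Protein folding in the cytosol was represented by sti1 (AO090038000562), a co-chaperone that in yeast links Hsp70 and Hsp90. It stood at 215 and 279.9 CPM in the solid controls, 185 and 310.0 in solid DTT, 319 and 347 in the liquid controls and 295 and 236 in liquid DTT. In liquid culture both DTT libraries were below both controls, while in solid culture one DTT library was below and the other above both controls. Its ratio of highest to lowest was 1.88.

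Chromatin assembly was represented by nap1 (AO090009000708), a histone chaperone gene and the most abundant of the 61 genes. It reached 499 and 698 CPM in the solid controls, 643 and 640.1 in solid DTT, 808 and 871 in the liquid controls and 571 and 866 in liquid DTT, with a mean of 699.6 ± 138 CPM. Per kilobase of coding length, nap1 was also the highest, at 566 CPM per kb. The liquid controls were above both solid controls, and the solid controls and solid DTT libraries overlapped.

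The gene hapE (AO090701000005) encodes a subunit of the CCAAT-binding complex, a transcription factor known from Aspergillus nidulans. Its levels were 99.9 and 99.3 CPM in the solid controls, 59.2 and 99.9 in solid DTT, 80.3 and 106 in the liquid controls and 59.995 and 78.1 in liquid DTT. The DTT libraries of replicate 1 were the lowest of all 8, and in liquid culture both DTT libraries were below both controls.

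Golgi transport was represented by gmtA (AO090009000688), a GDP-mannose transporter gene in Aspergillus nidulans that supplies the sugar donor for mannosylation. It measured 119.6 and 145 CPM in the solid controls, 125 and 121 in solid DTT, 95.6 and 122 in the liquid controls and 90.5 and 89.7 in liquid DTT. Both liquid DTT libraries were the lowest of the 8, and the solid DTT libraries were above them. The mean was 113 ± 19.6 CPM.

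Splicing was represented by spp2 (AO090023000820), a factor of the spliceosome in yeast. The gene stood at 54.2 and 60.1 CPM in the solid controls, 59.1 and 55.0 in solid DTT, 50.8 and 36.5 in the liquid controls and 56.9 and 51.2 in liquid DTT. All but one library lay between 50.8 and 60.1 CPM, and the lowest, liquid control replicate 2, had an exact 95% Poisson interval of 32.4 to 41.0 CPM.

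**Figure D2:**
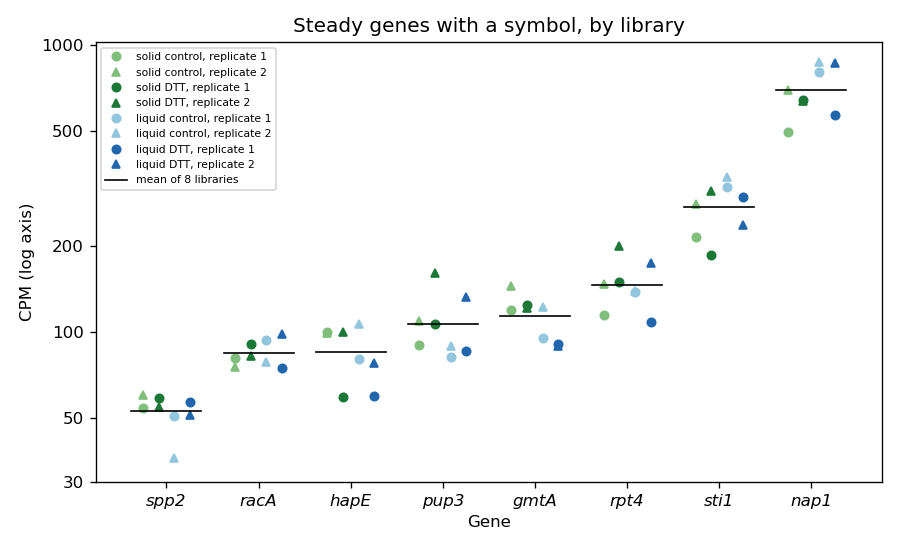
CPM (y axis, log scale) of 8 steady genes with a symbol (x axis) in each of the 8 libraries. Colours mark the condition, circles replicate 1, triangles replicate 2 and the bar the mean of 8 libraries; the values of racA lie closest together (74.8 to 98.7 CPM) and those of pup3 spread the most (81.6 to 160.0 CPM).

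The other 52 genes have no symbol in the reference table and are given by locus tag, with no role. The share with a symbol, 9 of 61 (14.8%), was close to the 14.5% among all genes with a mean of 50 CPM or more. By level, 8 of the 61 genes had a mean of 200 CPM or more, 16 between 100 and 200 CPM, and 37 below 100 CPM. The median of the means was 84.4 CPM, against 103 CPM over the 2898 genes.

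Among the genes without a symbol the smallest ratio on the deposited totals was that of AO090102000638, at 222 and 221 CPM in the solid controls, 207 and 275 in solid DTT, 229.7 and 272 in the liquid controls and 254 and 287 in liquid DTT. Its ratio was 1.38, with 1.82 under TMM scaling, 1.498 without rRNA reads and 2.01, past the limit, under DESeq2 size factors. At 329 CPM per kb it was second to nap1 in level per length. AO090023000908 followed with a ratio of 1.45, at 66.5 and 61.6 CPM in the solid controls, 58.8 and 62.8 in solid DTT, 71.8 and 75.9 in the liquid controls and 60.2 and 85.1 in liquid DTT. In that gene the liquid controls were above both solid controls.

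For AO090005000880 (ratio 1.48) the values were 119 and 144 CPM in the solid controls, 106 and 134 in solid DTT, 133 and 125 in the liquid controls and 96.9 and 116 in liquid DTT. Liquid DTT replicate 1 was the lowest library there, and solid control replicate 2 the highest. AO090012000051 (ratio 1.504) measured 86.3 and 101 CPM in the solid controls, 73.1 and 109 in solid DTT, 101 and 110.0 in the liquid controls and 78.6 and 96.2 in liquid DTT. In both of these genes replicate 1 of each DTT condition was below replicate 2, and both liquid DTT libraries were below both liquid controls.

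AO090009000677 (ratio 1.52) had the longest coding length of the 61 genes, 3603 bases. Its levels were 163 and 191 CPM in the solid controls, 149.8 and 125 in solid DTT, 178 and 186 in the liquid controls and 136 and 146 in liquid DTT. All 4 DTT libraries were below all 4 controls, and no other scaling of the reads kept that separation.

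The second most abundant of the 61 genes, AO090001000329, stood at 221 and 264 CPM in the solid controls, 243 and 378 in solid DTT, 281 and 341 in the liquid controls and 404 and 376 in liquid DTT. In liquid culture both DTT libraries were above both controls, and in solid culture the groups overlapped. AO090102000501 stood at 230.4 and 284 CPM in the solid controls, 183 and 197 in solid DTT, 312 and 234 in the liquid controls and 299 and 232 in liquid DTT. In solid culture its DTT libraries were below the controls, and in liquid culture they overlapped.

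AO090012000581 measured 169.5 and 269 CPM in the solid controls, 194 and 230.2 in solid DTT, 267 and 207 in the liquid controls and 273 and 228 in liquid DTT. The 2 libraries of the solid control lay farther apart than the means of any 2 conditions. AO090003001069, among the genes nearest to the limit, measured 255 and 175 CPM in the solid controls, 205 and 192 in solid DTT, 145 and 202 in the liquid controls and 167 and 289 in liquid DTT. Its coverage was 100% in every library, so no coding length could be recovered for it.

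**Figure D3:**
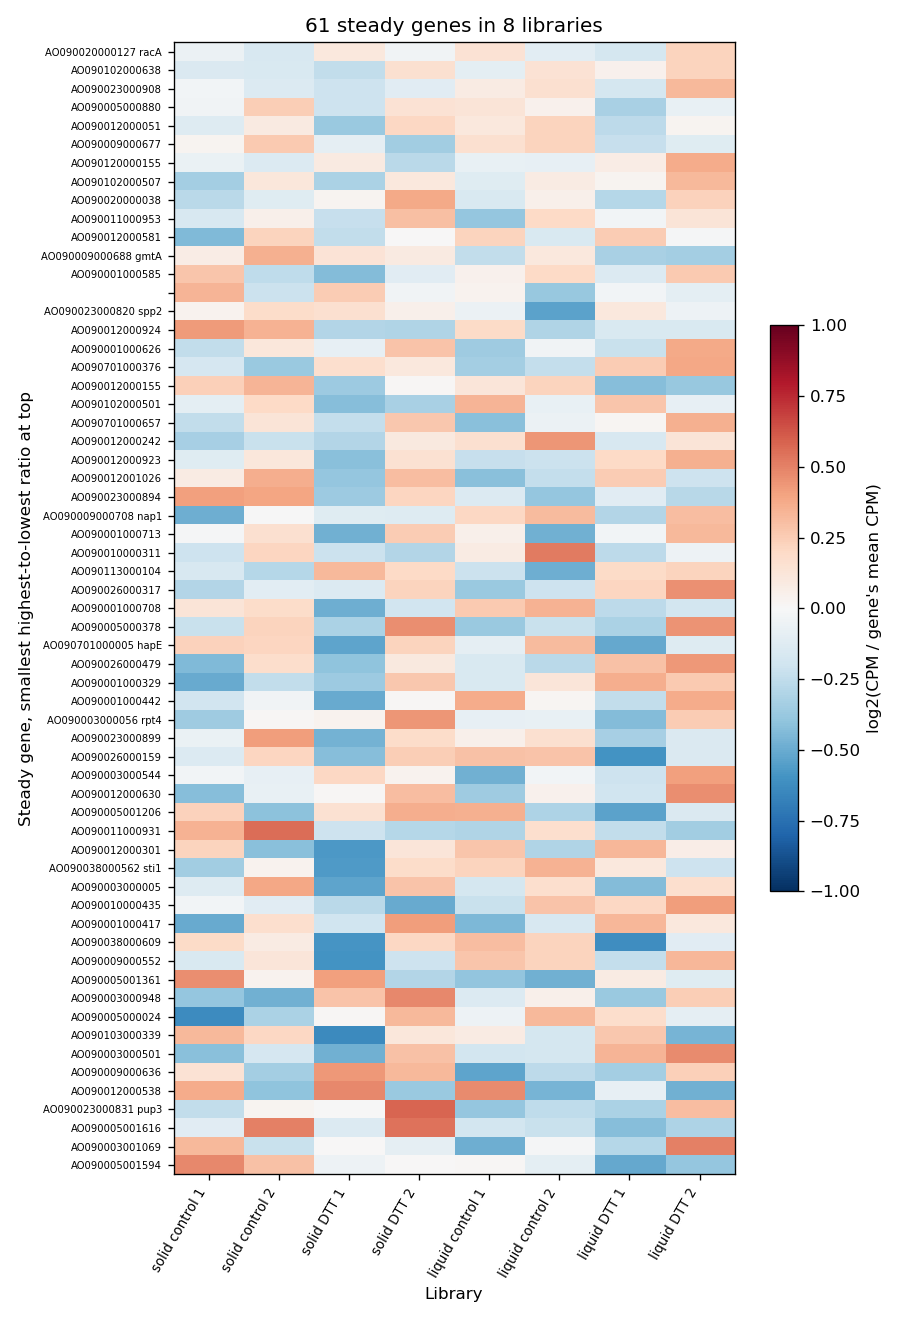
Level of each of the 61 steady genes (rows, smallest ratio at the top, 1 without a label) in the 8 libraries (columns), as the log2 of CPM over the gene's mean CPM. Red is above the gene's mean and blue below it; liquid DTT replicate 2 holds the highest value of 19 genes and solid DTT replicate 1 the lowest of 16.

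The remaining spread lay both between conditions and between the 2 libraries of a condition, and its parts were not separated. The median fold between the 2 libraries of a condition was 1.249 over the 61 genes, against 1.71 over all 2898, and the largest such fold within a gene had a median of 1.49. Between condition means, the ratio of highest to lowest had a median of 1.42. In 40 of the 61 genes (65.6%) the largest fold between replicates was above the ratio of the condition means, compared with 38.5% of the 2898 genes. The former compares single libraries and the latter means of 2 libraries, so the measures are not alike. The ratio limit of the rule bears on both of them in the 61 genes, so nothing is read from the difference to the 2898. Replicate 2 was the higher on average in 48 of 61 genes (78.7%) and in 76.3% of the 2898. The rRNA share was lower in replicate 2 than in replicate 1 in every condition except liquid DTT (20.6% against 17.7%), and its part in this difference was not tested.

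A few genes followed the replicate number, and with it the insert size, without overlap. AO090012000538 had the clearest separation, at 65.6 and 38.3 CPM in the solid controls, 70.7 and 39.2 in solid DTT, 70.2 and 36.6 in the liquid controls and 47.8 and 36.2 in liquid DTT. Replicate 1 was 1.69 times replicate 2, and 2.00 to 2.37 times under the other scalings. It was 1 of 2 genes higher in all 4 libraries of replicate 1, where 1.21% of the 2898 genes were. Another 4 genes were lower in all 4 (AO090003000005, AO090001000626, AO090102000507 and AO090011000953), where 14.5% of the 2898 genes were. For the last 3 of these the direction flipped under TMM scaling and DESeq2 size factors, at ratios of 1.02 to 1.13.

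Between conditions the genes moved little, as the choice of genes requires. Over the 61 genes the ratio of mean CPM under DTT to control ran from 0.615 to 1.76 in solid culture (median 0.979) and from 0.641 to 1.55 in liquid culture (median 1.02). The ratio of solid to liquid culture ran from 0.654 to 1.63 without DTT (median 1.01) and from 0.618 to 1.53 with DTT (median 0.993). The extremes for DTT in solid culture were AO090011000931, at 113 and 131 CPM in the controls and 77.2 and 72.9 under DTT, and AO090003000948, at 42.7 and 40.0 CPM in the controls and 68.0 and 77.6 under DTT. In liquid culture they were AO090026000159, at 175 and 174 CPM in the controls and 94.4 and 129 under DTT, and AO090026000317, at 61.7 and 69.3 CPM in the controls and 92.8 and 109.8 under DTT. In all 4 genes the 2 groups did not overlap in that culture.

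For the cultures without DTT the extremes were AO090005000024, described below, and AO090005001361, at 312 and 231 CPM in the solid controls, 301 and 185 in solid DTT, 172 and 162 in the liquid controls and 239 and 208 in liquid DTT. In AO090005001361 the solid controls were above the liquid ones, and the DTT libraries of the 2 cultures overlapped. With DTT the extremes were AO090005001616, described below, and AO090010000435, at 70.1 and 66.1 CPM in the solid controls, 59.2 and 50.5 in solid DTT, 61.2 and 86.9 in the liquid controls and 82.2 and 95.2 in liquid DTT. In AO090010000435 the liquid DTT libraries were above the solid ones, and the controls of the 2 cultures overlapped.

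Counted over the 61 genes, both DTT libraries were above both controls in solid culture in 10 genes and below them in 12, where 26% and 27.2% of the 2898 genes were. In liquid culture they were above in 13 genes (24.5% of the 2898) and below in 15 (32.1%). Without DTT both solid libraries were above both liquid ones in 13 genes (20.5%) and below in 14 (22.7%), and with DTT above in 7 (22.9%) and below in 7 (18.4%). None of the 61 genes, 0 in each direction, was separated by DTT in opposite directions in the 2 cultures, where 1.14% of the 2898 genes were higher in solid and lower in liquid culture and 0.863% the reverse. The ratio limit bears on all of these counts, so nothing is read from them.

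By edgeR's quasi-likelihood test over 9438 genes with Benjamini-Hochberg adjustment, 0 of the 61 genes were called in any of the 4 comparisons at an adjusted p under 0.05. The shares of all tested genes called were 9.3% for DTT in solid culture, 20% for DTT in liquid culture, 3.89% for solid against liquid culture without DTT and 2.95% with DTT. At an unadjusted p under 0.05 the test took 0, 1, 0 and 0 of the 61 genes in the same order, where it took 28%, 36.2%, 18.3% and 23.5% of all tested genes. DESeq2 also called 0 of the 61 in each comparison, where it called 17.7%, 27.5%, 9.43% and 12.1% of all tested genes. With the replicate number as a block, edgeR again called 0 of the 61, where it called 20.1%, 31.6%, 8.17% and 10.5%. At an unadjusted p under 0.05 the fit with the block took 1, 7, 0 and 1 of the 61 genes. Of all 9438 tested genes it took 3470, 4152, 2361 and 2926 in the same order. The rule used these contrasts, so nothing is read from the counts, and a gene that was not called is not shown to be unchanged: the fitted log2 fold changes of the 61 genes reached 0.84 for DTT in solid culture and 0.88 in liquid culture.

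Several of the 61 genes still separated treated from control libraries. Under DTT all 4 libraries were above all 4 controls in 2 genes, where 11.1% of the 2898 genes were, and below them in 3 genes, where 13.5% were. AO090113000104 was one of the former, at 82.7 and 75.8 CPM in the solid controls, 116 and 106 in solid DTT, 79.8 and 66.1 in the liquid controls and 106 and 108 in liquid DTT. AO090701000376 was the other, at 65.7 and 57.2 CPM in the solid controls, 82.9 and 79.4 in solid DTT, 58.5 and 62.5 in the liquid controls and 88.2 and 96.8 in liquid DTT. Their mean levels under DTT were 1.43 and 1.42 times those of the controls. Under the other scalings these ratios were 1.501 to 1.65, above 1 throughout, and the groups of 4 overlapped under TMM scaling and DESeq2 size factors.

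The 3 genes lower under DTT were AO090009000677, described above, AO090012000155 and AO090001000708. AO090012000155 stood at 134 and 144 CPM in the solid controls, 88.3 and 114 in solid DTT, 124 and 132 in the liquid controls and 84.7 and 87.1 in liquid DTT. For AO090001000708 the values were 57.3 and 59.5 CPM in the solid controls, 37.5 and 46.0 in solid DTT, 63.1 and 66.7 in the liquid controls and 43.8 and 46.2 in liquid DTT. Their ratios of DTT to control were 0.702 and 0.703, and 0.739 to 0.808 under the other scalings, of which only the one without rRNA reads kept the groups apart.

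By culture, 1 gene was higher in all 4 solid than in all 4 liquid libraries, where 2.48% of the 2898 genes were, and 0 were lower, where 3.66% were. That gene was AO090005001616, at 65.6 and 100.4 CPM in the solid controls, 64.5 and 103 in solid DTT, 62.2 and 60.6 in the liquid controls and 52.7 and 57.3 in liquid DTT. In solid culture replicate 2 was well above replicate 1, and in replicate 1 the 2 controls lay close together. Its mean ratio of solid to liquid culture was 1.43, and 1.28 to 1.47 under the other scalings, but the groups of 4 overlapped under TMM scaling and DESeq2 size factors.

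The genes near the limits had patterns of other kinds. AO090005001594, nearest to the ratio limit, stood at 141 and 124 CPM in the solid controls, 97.8 and 102 in solid DTT, 102 and 94.3 in the liquid controls and 70.9 and 77.4 in liquid DTT. Its DTT libraries were below the controls of the same culture in both cultures, and the solid libraries were above the liquid ones of the same treatment. AO090005000024 stood at 32.7 and 40.6 CPM in the solid controls, 51.0 and 63.3 in solid DTT, 48.8 and 63.4 in the liquid controls and 57.0 and 47.5 in liquid DTT. Solid control libraries were its lowest. AO090003000544 measured 50.8 and 49.0 CPM in the solid controls, 59.9 and 53.2 in solid DTT, 37.2 and 51.0 in the liquid controls and 44.997 and 68.9 in liquid DTT, with its extremes in liquid culture.

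Which genes counted as steady depended on how the libraries were scaled. With the reads on rRNA genes taken out of the totals, 49 of the 61 genes still met the rule. Under TMM scaling 33 did and under DESeq2 size factors 30, and 28 met it under all 4 scalings. Conversely, 10 of the 61 met it on the deposited totals alone, among them spp2. The 28 included racA, nap1, rpt4, pup3, hapE and gmtA, while sti1 passed the limit of 2 under DESeq2 size factors (2.03). The ratio of AO090012000051 was the smallest of the 61 under TMM scaling (1.24) and without rRNA reads (1.42).

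**Figure D4:**
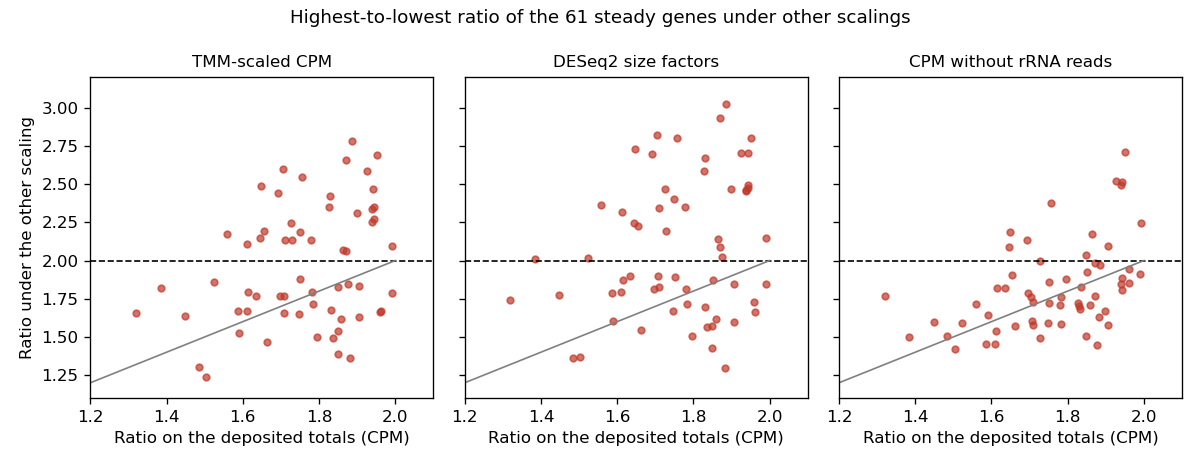
Ratio of highest to lowest level over 8 libraries for each of the 61 steady genes, on the deposited totals (x axis) and under 3 other scalings (y axis of each panel). The dashed line marks the limit of 2 and the grey line equality; 28 genes lie above the limit under TMM scaling, 31 under DESeq2 size factors and 12 without rRNA reads.

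Summed over the 61 genes, the level was 6229 to 7643 CPM, a ratio of 1.23 between solid DTT replicate 1 and liquid DTT replicate 2. Taking out rRNA reads gave a ratio of 1.255. TMM scaling raised it to 1.53, with liquid DTT replicate 1 the highest at 9188 and solid DTT replicate 2 the lowest at 6002. After TMM scaling 26 of the 61 genes had their highest value in liquid DTT replicate 1, which held the lowest TMM factor and, on the deposited totals, the lowest value of 961 of the 2898 genes. Relative to the deposited totals, TMM scaling moved the median of the 2898 genes by a log2 value of -0.32 (solid DTT replicate 2) to 0.45 (liquid DTT replicate 1).

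**Figure D5:**
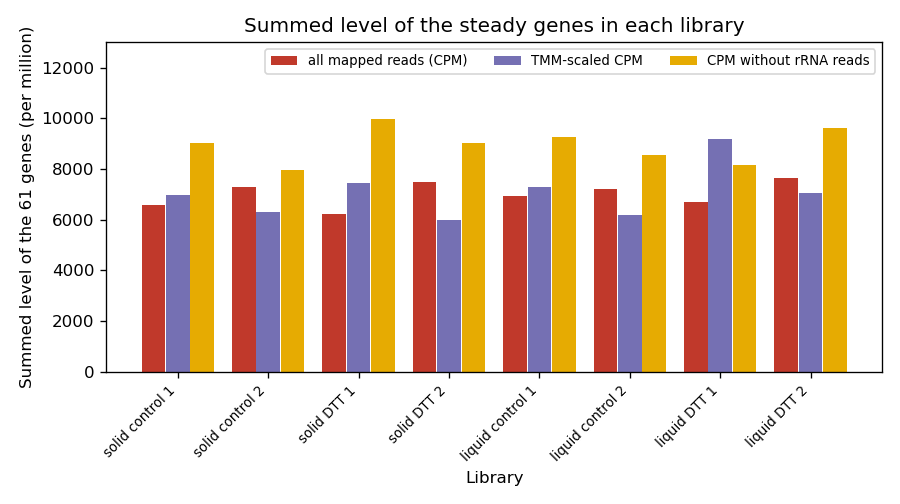
Summed level of the 61 steady genes in CPM (y axis) in each library (x axis) on the deposited totals, after TMM scaling and without rRNA reads. On the deposited totals the bars span 6229 to 7643, and after TMM scaling 6002 to 9188 with the highest in liquid DTT replicate 1.

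The rule was also applied to the libraries of one replicate number, and the ratio was then read in those of the other. Applied to the 4 libraries of replicate 1 alone, the rule took 508 genes, and 267 of them (52.6%) stayed within a ratio of 2 in the 4 libraries of replicate 2. Of all 2455 genes that met the mean limit in replicate 1, 21.5% did so, and of the 1947 not chosen, 13.4%. In the opposite direction, 775 genes were chosen in replicate 2 and 400 (51.6%) stayed within 2 in replicate 1, where 23.3% of the 3154 genes that met the mean limit did and 14.1% of those not chosen. The libraries of a condition may come from the same culture, so this compares insert sizes and library preparations rather than cultures.

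Of 9 genes with the symbols of customary reference genes, 7 reached a mean of 50 CPM and 0 met the rule, where 2.14% of the 2898 genes met both of its limits. Their ratios ran from 2.18 to 16.3 with a median of 2.97, against 5.61 over all genes, and 4 of the 7 had a ratio of at most 3, against 15.8%. The glyceraldehyde phosphate dehydrogenase gene gpdA ranged from 3689 to 11702 CPM (ratio 3.17), the actin gene act1 from 332 to 1082 CPM (3.25) and the histone gene hhtA from 454 to 1218 CPM (2.68). The gene cyp4, its symbol that of a cyclophilin (a prolyl isomerase), ranged from 149.99 to 2443 CPM (16.3). The smallest ratio, 2.18, was that of cyp3 (66 to 144 CPM), singled out after its value was seen, and it was 1.58 under TMM scaling. Without rRNA reads cyp3 (1.52) and hhtA (1.97) came within the limit. The symbol search also took cprA, which is not a cyclophilin in Aspergillus but a cytochrome P450 reductase gene. It is counted among the 7 and among the 4 with a ratio of at most 3. Its own ratio, 2.97, is the median given above, so that summary rests in part on a gene outside the intended list.

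Among the lists of cellular roles, proteasome genes had the smallest median ratio, 2.55. All 16 with a symbol had a mean of 50 CPM or more, and 10 of them had a ratio of at most 3, against 15.8% of the 2898 genes. The 16 include rpnL, pre8, pre3, pre9, pre4, rpt1 and pre1, which the rule left out by name. On the deposited totals 3 of the 16 met the ratio limit, which are rpt4, pup3 and rpnL. Under TMM scaling 12 of 16 did, where 5.94% of the 2898 genes did, and under DESeq2 size factors 13 of 16 (6.56%), but 2 of 16 did without rRNA reads (2.93%). The most abundant were rpt1 (ratio 3.17), rpt3 (2.29), pre1 (2.39) and rpt4 (1.84). The list was chosen with earlier results of these data known, and its ratios come from the reads that the rule used. These counts describe the 16 genes and were not tested.

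For the other lists the values can be read beside those over the 2898 genes, a median ratio of 5.61 and 2.14% within the limit. The lists were taken by symbol alone, and the role of each gene was not checked. Those in doubt include sec11 (vesicle transport list), medA (chromatin list) and cdc48 and cdc123 (signalling list). The 6 genes of translation factors had ratios of 5.54 to 26.1 and the 5 ribosomal protein genes 29.8 to 175, and 0 genes of either list met the limit under any scaling. For 8 vesicle transport genes the median ratio was 4.50, for 6 mitochondrial genes 5.50, for 5 autophagy genes 5.49 and for 3 ubiquitin genes 6.35, with 0 within the limit under any scaling. Chromatin and transcription genes (7) had a median of 4.58 and RNA processing genes (6) one of 4.53, with 1 gene of each, spt6 and dbp5, within the limit under TMM scaling and DESeq2 size factors. In the signalling list (6 genes) the median ratio was 4.75, and 1 gene was within the limit on the deposited totals and 0 under each of the other scalings.

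Coding length was a measure that the rule did not use. Coding lengths, recovered from the deposited fractions of each gene covered by reads, had a median of 1088 bases over 58 of the 61 genes and of 1494 bases over 2838 of the 2898, which include the 61, a difference that was not tested. They ran from 342 bases in AO090001000713 to 3603. Per kilobase, a level that depends on the mean CPM the rule used, the median was 94.7 CPM, against 73.9 CPM over those 2838 genes. The median coverage of a gene was 98.4% in replicate 1 and 99.96% in replicate 2, against 95.8% and 99.8%. The lowest coverage of a gene in any library had a median of 96.0%, against 89.5%. Coverage comes from the same reads and follows depth and length, so it is not independent evidence.

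In the order of genes in the reference table, 7 pairs of the 61 genes lay within 10 places of each other. One pair, AO090012000923 and AO090012000924, were direct neighbours. The former stood at 81.4 and 95.8 CPM in the solid controls, 66.4 and 98.5 in solid DTT, 75.8 and 76.3 in the liquid controls and 102 and 114 in liquid DTT. The latter stood at 87.1 and 82.6 CPM in the solid controls, 53.0 and 52.6 in solid DTT, 74.3 and 52.8 in the liquid controls and 58.3 and 58.5 in liquid DTT. The ratio of one neighbour to the other varied 2.08-fold over the 8 libraries, where the 7 pairs ran from 1.79-fold to 2.53-fold. Whether the neighbours share a pattern was not tested. Since the labels do not mention strand, reads of overlapping or antisense neighbours cannot be told apart.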

How the data were processed

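The deposited tables hold, per the file headers, a read count per gene (used as it stands) and a coverage fraction. The aligner, genome build, annotation, strand setting and handling of multiply mapped reads: not given in the sources used here. Per the labels, 44 bp were read from both ends. The libraries held 5880753 to 8912897 reads. CPM used all mapped reads. Counts were also tested with edgeR 4.0.16 in R 4.3.3 (filterByExpr at its minimum count of 10, TMM, all 8 libraries in 1 quasi-likelihood fit with 4 residual degrees of freedom, Benjamini-Hochberg adjustment), with DESeq2 1.42.0 as an alternative. The fit was tested on simulated data with less spread than these libraries and no difference between replicate numbers. The outcome does not measure its power here.

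The replicate numbers coincide with the insert size, and the differences between replicates 1 and 2 correlated between conditions at 0.24 to 0.51 over the tested genes and 0.055 to 0.49 over the 61. As the labels tie each number to an insert size, the numbers were taken to pair the libraries in the fit with the block. The main fit had no block and left this pairing out. Replicates 1 and 2 were farther apart than counting error (a chi-square of 179 to 265 for each degree of freedom over all genes and 14.9 to 31.9 over the 61). DESeq2 size factors were put on a common mean depth. Coding lengths are the common denominators of the deposited fractions, and 99.3% were multiples of 3 in protein-coding genes. The shortest ones may be divisors of the true lengths. All 11880 locus tags matched the RefSeq table of ASM18445v3, used for names and gene order only, in which 714 of 12347 genes have a symbol.

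Named were genes with a symbol, the 6 most abundant, the 6 with the smallest ratio, those nearest each limit and up to 4 per list. Genes whose groups of libraries do not overlap, the extremes of a ratio and the neighbours were named after their values were seen. Members and lists were chosen with earlier results of these data known. Promoter motifs and protein lengths, planned as further measures, were not analysed here. One gene with a symbol is not reported here, though it is among the 61.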

Additional observations from a re-analysis of the deposited data

How the results depend on the processing

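On the deposited totals the rule took 61 genes. It took 166 under TMM scaling, 177 with DESeq2 size factors and 105 without rRNA reads, of which 33, 30 and 49 were among the 61. A limit of 1.5 in place of 2 left 4 genes and one of 2.5 gave 231. A mean of 20 CPM gave 129 and one of 100 CPM gave 24. The 4 libraries of replicate 1 gave 508 genes and those of replicate 2 gave 775. Fewer libraries can only narrow the ratio, and leaving out 1 library gave 69 to 160 genes, the most without liquid DTT replicate 1 (160), then without solid control replicate 2 (105) and solid DTT replicate 1 (92). Of the 61 genes, 0 were called in any of the 4 comparisons with the replicate block, RLE size factors or DESeq2. Without a filter on low counts 0 were called as well. The rule used these contrasts, so these counts say nothing about the pairing. Over 9438 tested genes the block raised calls for DTT from 878 to 1897 in solid and from 1885 to 2984 in liquid culture. For solid against liquid culture it raised them from 367 to 771 without DTT and from 278 to 993 with DTT. With RLE size factors the calls were 847, 1867, 342 and 248 in the same order. Without the filter they were 1107, 2050, 569 and 610 of 11650 genes. Leaving out 1 library left 1 library in a condition, so no calls are read from those fits. For DTT in liquid culture the median log2 fold change of the 61 genes was 0.27 with all 8 libraries. It was 0.10 without liquid DTT replicate 1 and 0.54 without liquid DTT replicate 2. Without liquid control replicate 1 it was 0.46, and without liquid control replicate 2 it was 0.14. With 2 libraries per condition and counting errors near the lowest counts, ratios that differ by a few hundredths cannot be ranked.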

Other observations

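Under other scalings, genes outside the 61 met the same limits. There were 22 with a symbol under TMM scaling, 23 under DESeq2 size factors and 6 without rRNA reads, and those named here were chosen after their values were seen. They included the protein mannosyltransferase genes pmt1 and pmt4, which had ratios of 3.02 and 2.84 on the deposited totals and of 2.00 and 1.70 under TMM scaling. The chitin synthase gene chsA had ratios of 2.44 and 1.82 in the same order, and the transcription elongation gene spt6 had 2.73 and 1.71. The phosphoglucomutase gene pgmA was the most abundant of those under TMM scaling, with a mean of 497 CPM and ratios of 2.103 and 1.96.

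In all, 17 genes outside the 61 met the limits under all 3 other scalings, among them chsA and cyp3.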
